A study of Homo sapiens with 6 samples.

Results

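The SR splicing factors measured here were the 10 genes SRSF1, SRSF2, SRSF3, SRSF4, SRSF5, SRSF6, SRSF7, SRSF9, SRSF10 and SRSF11, taken by symbol from a table of 40173 genes. Each of the 10 symbols had a row in the table, and all 10 passed the filter on low counts that left 15250 genes for testing. The cells were A549, an established human lung adenocarcinoma line, transfected either with a small interfering RNA (siRNA) against the long noncoding RNA FAM83H-AS1 or with a scrambled negative control, and harvested a day later. RNA-Seq was performed on total RNA, with 3 control libraries and 3 silenced libraries. The comparison asked which mRNAs changed after FAM83H-AS1 silencing. The sources used here do not say which of the study's siRNAs these cells received, nor whether the replicates were separate cultures, so that p-values measure only the spread among these libraries.

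SR proteins bind exonic sequences through an RNA recognition motif and carry a domain rich in arginine and serine, through which they help the U1 snRNP and U2AF to find splice sites. SRPK kinases phosphorylate this domain in the cytoplasm, CLK kinases phosphorylate it further in the nucleus, and the import receptor TNPO3 carries the proteins into the nucleus. The family is known for holding its own levels in check: SR genes contain exons or introns with an early stop codon, and transcripts that include them are removed by nonsense-mediated decay. In lung and other tumors, SRSF1 is known as an oncoprotein.

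All 10 members have at least 1 transcript of the type nonsense-mediated decay in GENCODE 29, with 22 such transcripts in all. SRSF7 had the most of them, 6 of its 12 transcripts, and SRSF1 had 3 of 9. In 5 members, the annotated early stop of such a transcript lies in an exon that no coding transcript uses as coding sequence. A count per gene adds up coding and decay transcripts, and these short stretches show where the decay forms part from the coding ones. For each of these members, 1 stretch is given from the start of the exon to the stop codon, in lower case with the stop in capitals, on GRCh38. SRSF3 and SRSF7 have another such stretch in a different decay transcript, at chr6:36598429-36598510 and chr2:38749152-38749173, not printed here.
SRSF3, chr6:36599821-36599854, plus strand: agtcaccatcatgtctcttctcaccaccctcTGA
SRSF4, chr1:29166009-29166064, minus strand: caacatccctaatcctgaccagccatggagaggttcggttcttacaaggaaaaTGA
SRSF6, chr20:43459153-43459304, plus strand: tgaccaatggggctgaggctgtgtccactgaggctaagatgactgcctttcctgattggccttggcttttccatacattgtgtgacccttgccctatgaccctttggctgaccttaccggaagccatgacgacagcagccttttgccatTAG
SRSF7, chr2:38749319-38749346, minus strand: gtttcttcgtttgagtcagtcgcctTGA
SRSF11, chr1:70231859-70231908, plus strand: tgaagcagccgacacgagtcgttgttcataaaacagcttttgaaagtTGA

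FAM83H-AS1 itself was measured first. Control replicates 1, 2 and 3 had levels of 14.5, 16.0 and 17.3, and silenced replicates 1, 2 and 3 of 4.59, 4.44 and 5.57, in counts scaled to the same normalized library size (CPM). The silenced libraries lay below all control libraries, at 30.6% of the control mean (log2 fold change -1.70, standard error 0.148, adjusted p = 7.99e-05 by edgeR). Library totals ranged from 9738291 to 17742643 counts. Control replicate 3 was the deepest library, and RNA5-8SP6, a pseudogene of ribosomal RNA, took 3.22% of its counts but only 0.241% to 0.448% of those of the others.

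Markers were compared with the label of the cells. The epithelial keratins KRT7, KRT8 and KRT18 were abundant, with at least 909 CPM in every library. KRT7 was between 1277 and 1501 CPM in the control libraries and between 909 and 978 CPM in the silenced ones, and KRT18 between 1229 and 1363 CPM and between 951 and 1001 CPM. CDH1 stayed at or below 1.66 CPM, EPCAM at or below 4.49 CPM and KRT19 at or below 1.21 CPM. AKR1B10, an NRF2 target that is known to be strongly expressed in A549 cells, lay between 0.777 and 0.925 CPM in the control libraries. In the silenced libraries, it lay between 1.76 and 2.44 CPM. NQO1, another NRF2 target, lay between 183 and 213 CPM, AKR1C1 between 71.7 and 130 CPM and AKR1C2 at or below 27.3 CPM. These 4 NRF2 targets summed to 275 to 342 CPM in the control libraries and to 312 to 339 CPM in the silenced ones. Of the 4, 1 was higher and 0 lower at an adjusted p under 0.05 by edgeR. The low AKR1B10 goes against the label, and it was not the only low marker: CDH1, EPCAM and KRT19, among the epithelial markers listed for A549, were low too. The cells are called A549 here only as the labels do. Of the 4 leukocyte markers, CD3E was at 0 in every library, and their summed level was 1.04 to 2.06 CPM in the control libraries and 1.56 to 2.30 CPM in the silenced ones. The 4 fibroblast markers summed to 26.0 to 29.7 CPM and 28.7 to 37.8 CPM, nearly all of it COL1A1, the 3 endothelial markers to 4.42 to 6.39 CPM and 3.79 to 4.16 CPM, and the 4 alveolar type 2 markers, with SFTPA1 at 0, to 0.432 to 0.769 CPM and 0.669 to 1.46 CPM. The 6 epithelial markers summed to 4428 to 4727 CPM in the control libraries and to 3533 to 3574 CPM in the silenced ones, and 2 of them, KRT7 and KRT18, were lower at an adjusted p under 0.05 by edgeR. This is the direction of the SR members described next, and the part of these markers in those results was not tested. In such bulk samples, fewer cells of a kind and less RNA per cell cannot be told apart.

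SRSF1, SRSF2 and SRSF11 fell after FAM83H-AS1 silencing, to 79.8%, 78.5% and 81.7% of their control means. No member rose, and for the other 7 members the difference did not pass the test. Of the 10 members, 3 were thus lower and 0 higher at an adjusted p under 0.05, whereas 8.27% of all tested genes were lower, 8.75% higher and 17% either. No member changed by more than a factor of 2, a size that 2.14% of all tested genes exceeded with an adjusted p under 0.05. The 95% interval of every member lay within a fold change of 2. For 4 members, SRSF1, SRSF2, SRSF6 and SRSF11, all silenced libraries lay below all control libraries, which was the case for 17.5% of all tested genes. For 0 members did they lie above all control libraries, compared with 19.1% of all tested genes. The log2 fold change was below 0 for 8 of the 10 members, with a median of -0.13, beside a median of -0.00067 and 50.1% below 0 over all tested genes. In mean control CPM, SRSF4, the lowest member, lay above 82.5% of the tested genes and SRSF1, the highest, above 96.6%. The shares over all tested genes thus cover many genes at lower levels than the members. Shares among genes of like level were not computed.

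**Figure D1:**
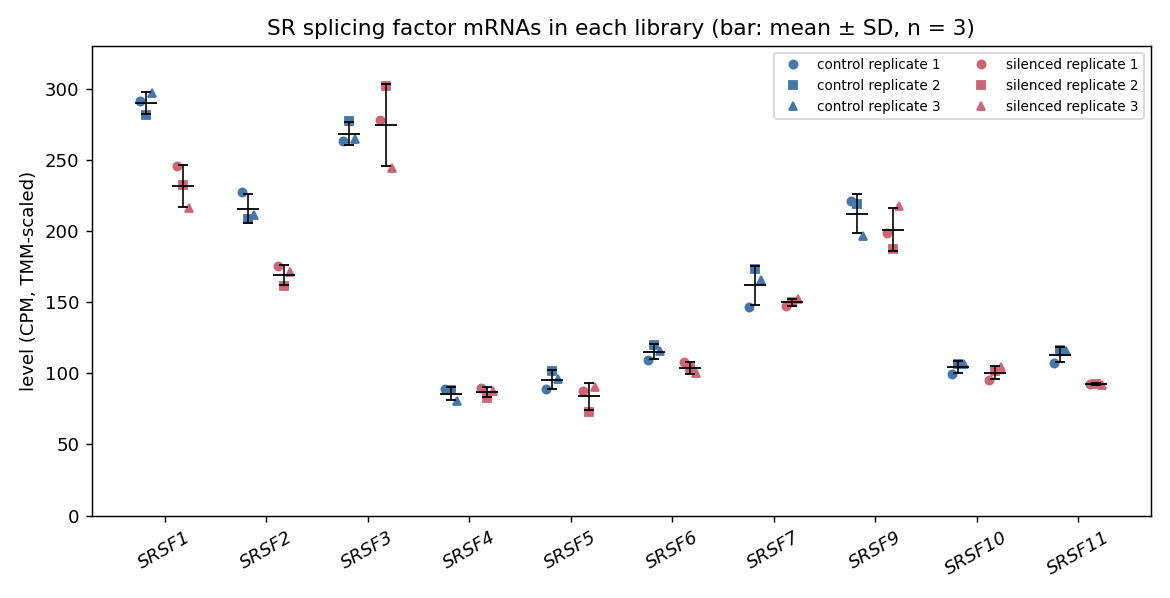
Level of each SR splicing factor mRNA in CPM (vertical axis, from 0) in the 3 control libraries (blue) and the 3 silenced libraries (red), with the marker shape giving the replicate number and the bars the mean ± SD (n = 3). The silenced libraries of SRSF1, SRSF2 and SRSF11 sit below all control libraries, and those of SRSF3 spread from 244 to 302 CPM on both sides of the controls.

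SRSF1, the founding member of the family, acts in constitutive and alternative splicing and also in mRNA export and translation. Its level was 291, 281 and 297 CPM in control replicates 1, 2 and 3, and 246, 232 and 216 CPM in silenced replicates 1, 2 and 3. The lowest control library was thus 281 CPM and the highest silenced library 246 CPM, with no overlap. The mean fell from 289.9 ± 7.97 CPM to 231 ± 14.7 CPM (SD, n = 3 each), and edgeR gave a log2 fold change of -0.33 ± 0.0711 (standard error) at an adjusted p of 0.0114. The 95% interval of the level after silencing was 71.6% to 88.9% of control. Between 2509 and 5024 reads per library lay behind these values. Leaving out any single library kept the adjusted p of edgeR between 0.0255 and 0.0409 and the log2 fold change between -0.37 and -0.28.

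SRSF2, which stays in the nucleus and is mutated in myeloid neoplasms, behaved similarly in size. Control replicates 1, 2 and 3 stood at 227, 208 and 211 CPM, and silenced replicates 1, 2 and 3 at 175, 161 and 171 CPM. The gap between the groups, from 175 to 208 CPM, was wider than the spread within either group. The mean fell from 216 ± 10.2 CPM to 169 ± 7.08 CPM (SD, n = 3 each). By edgeR, this was a log2 fold change of -0.35 ± 0.0706 (standard error) at an adjusted p of 0.0083, and the 95% interval was 70.5% to 87.5% of control. SRSF2 was the single member with an adjusted p under 0.01. Its adjusted p by edgeR was between 0.0163 and 0.0339 when any single library was left out.

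SRSF11, which belongs to the less studied members of the family, showed the tightest silenced group. The control libraries were at 107, 117 and 116 CPM and the silenced libraries at 92.8, 92.6 and 91.7 CPM. The silenced values differed among themselves by about 1 CPM, and all lay below the lowest control library. Its mean fell from 113 ± 5.35 CPM to 92.3 ± 0.593 CPM (SD, n = 3 each). The log2 fold change was -0.29 ± 0.0714 (standard error) and the adjusted p 0.0182 by edgeR. The 95% interval was 73.2% to 91.0% of control. This call depended on single libraries: the adjusted p of edgeR was 0.0608 without control replicate 2, 0.0755 without silenced replicate 1 and 0.0524 without silenced replicate 3, at log2 fold changes of -0.27, -0.30 and -0.29. In each of these settings, 2 members were lower.

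The 3 differences were of similar size without control replicate 3, the library with the higher share of ribosomal RNA. In that setting, the log2 fold change was -0.31 for SRSF1 (adjusted p = 0.0317 by edgeR), -0.36 for SRSF2 (adjusted p = 0.0163 by edgeR) and -0.28 for SRSF11 (adjusted p = 0.0494 by edgeR).

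**Figure D2:**
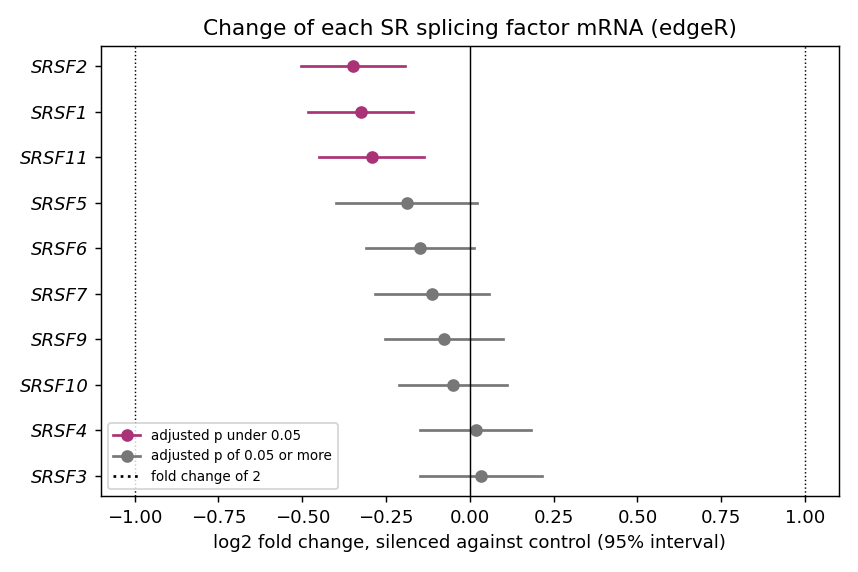
log2 fold change of each SR splicing factor, silenced against control (horizontal axis), from edgeR with its 95% interval, in purple where the adjusted p was under 0.05. Dotted vertical lines mark a fold change of 2. The intervals of SRSF2, SRSF1 and SRSF11 lie wholly below 0, and those of the other 7 members cross it.

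SRSF4, SRSF5 and SRSF6 are close relatives that each carry a pair of RNA recognition motifs. SRSF6 was at 109, 120 and 116 CPM in the control libraries and at 108, 103 and 100.1 CPM in the silenced libraries. The groups did not overlap, but control replicate 1 and silenced replicate 1 lay only about 1 CPM apart, and the difference did not pass the test (log2 fold change -0.15, standard error 0.0733, adjusted p = 0.184 by edgeR). SRSF5 was at 88.6, 102 and 95.8 CPM and at 87.9, 72.7 and 90.6 CPM, so that the groups overlapped and silenced replicate 2 stood apart at the low end (log2 fold change -0.19, standard error 0.0957, adjusted p = 0.202 by edgeR). It had the largest standard error of the members. SRSF4 was nearly level, with 88.6, 88.0 and 80.4 CPM in the control libraries and 89.6, 82.9 and 87.3 CPM in the silenced libraries. Its log2 fold change of 0.02 had a 95% interval of 90.2% to 114% of control, and its sign turned to -0.03 without control replicate 3 and to -0.01 without silenced replicate 1.

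SRSF3, the smallest member, and its relative SRSF7, which carries a zinc knuckle, both link splicing to mRNA export through NXF1. SRSF3 was at 263, 278 and 264 CPM in the control libraries and at 278, 302 and 244 CPM in the silenced libraries. The silenced libraries held both the highest and the lowest value, with an SD of 28.9 CPM against 8.06 CPM in the control libraries. The log2 fold change of 0.03 ± 0.0828 (standard error), with an adjusted p of 0.826 by edgeR, had a 95% interval of 90.2% to 116% of control and became -0.04 without silenced replicate 2. SRSF7 was at 147, 174 and 165 CPM in the control libraries and at 147, 150 and 152 CPM in the silenced libraries. Control replicate 1 equalled the lowest silenced library to the nearest CPM, so that the groups overlapped (log2 fold change -0.11, standard error 0.0776, adjusted p = 0.353 by edgeR).

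SRSF9, the closest relative of SRSF1, was at 221, 219 and 197 CPM in the control libraries and at 198, 188 and 217 CPM in the silenced libraries. The groups overlapped, and the log2 fold change of -0.08 (standard error 0.0798) had a 95% interval of 84.0% to 107% of control. SRSF10, known as a splicing repressor once it is dephosphorylated in heat shock, was at 99.2, 106 and 107 CPM and at 95.6, 102 and 104 CPM. Its groups overlapped too, with a log2 fold change of -0.05 (standard error 0.0735) and an interval of 86.3% to 108% of control. A change by a factor of 2 thus lay outside the interval of each of the 7 members that did not pass the test. A level like that of SRSF1, 79.8% of control, lay inside the interval of SRSF5, which was 75.9% to 102%.

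The 10 members together summed to 1642, 1693 and 1649 CPM in the control libraries and to 1518, 1486 and 1475 CPM in the silenced libraries. The mean sum was 1661 ± 27.4 CPM and then 1493 ± 22.2 CPM (SD, n = 3 each), or 89.9% of control, given as a description with no test. Within the sum, SRSF1 held 17.5% ± 0.740 of the counts in the control libraries and 15.5% ± 0.766 in the silenced libraries. SRSF2 held 13.0% ± 0.784 and then 11.3% ± 0.413, and SRSF3 held 16.1% ± 0.217 and 18.4% ± 1.87 (SD, n = 3 each). SRSF1 contributed the largest share in the control mean and SRSF3 in the silenced mean, where silenced replicate 2 was the highest at 20.3% and silenced replicate 3, at 16.5%, lay near the control libraries.

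Levels of different genes were compared per kilobase of the principal transcript. In the control libraries, SRSF1 was the highest member at 192 ± 5.26 CPM per kilobase, followed by SRSF9 at 177 ± 11.3 and SRSF2 at 74.7 ± 3.55 CPM per kilobase (SD, n = 3 each). SRSF7, SRSF10 and SRSF3 came next at 65.0 ± 5.50, 63.8 ± 2.60 and 63.6 ± 1.91 CPM per kilobase, with libraries that overlapped between neighbours. SRSF4 and SRSF5, at 35.9 ± 1.92 and 33.9 ± 2.33 CPM per kilobase, also overlapped. SRSF11 at 29.9 ± 1.41 and SRSF6 at 26.6 ± 1.25 CPM per kilobase were the lowest members and did not overlap. The order rests on the length used: per kilobase of coding sequence, SRSF3 was the highest member at 545 CPM per kilobase, before SRSF1 at 382. The members that fell were therefore found at both ends of this order, SRSF1 and SRSF2 near the top and SRSF11 near the bottom.

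Related members were then set against each other inside each library, as the log2 ratio of their counts, which does not depend on the scaling between libraries. SRSF1 over SRSF9 was 0.40, 0.36 and 0.60 in control replicates 1, 2 and 3 but 0.31, 0.31 and -0.01 in silenced replicates 1, 2 and 3. The ratio was lower in every silenced library than in every control library, by 0.25 on average. The difference was -0.14 without silenced replicate 3 and -0.18 without control replicate 3, and between -0.30 and -0.27 without any other single library. SRSF10 over SRSF11, a pair of more distant members, was -0.11, -0.13 and -0.12 in the control replicates and turned to 0.04, 0.14 and 0.18 in the silenced ones. SRSF11 had more counts than SRSF10 in all control libraries and fewer in all silenced libraries, a difference of 0.24 that stayed between 0.21 and 0.28 whichever library was left out. For both pairs the two-sided exact permutation test gave p = 0.1, the smallest that 3 libraries against 3 allow, and p = 0.24 after Benjamini-Hochberg adjustment over the 6 pairs tested. Both pairs hold a member that was lower by itself, SRSF1 or SRSF11, so these ratios are not a result apart from that fall. How often pairs of other genes separate the groups was not computed.

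The other 4 pairs overlapped between the groups. SRSF3 over SRSF7 differed by 0.14, SRSF4 over SRSF6 by 0.16 and SRSF4 over SRSF5 by 0.21, each with p = 0.2 by the exact permutation test and 0.24 after adjustment. SRSF5 over SRSF6 differed by -0.04 (exact permutation p = 0.8, adjusted 0.8), with silenced replicate 2 at -0.51 and silenced replicate 3 at -0.14 on either side of the control libraries. Leaving out silenced replicate 2 turned this difference to 0.05.

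**Figure D3:**
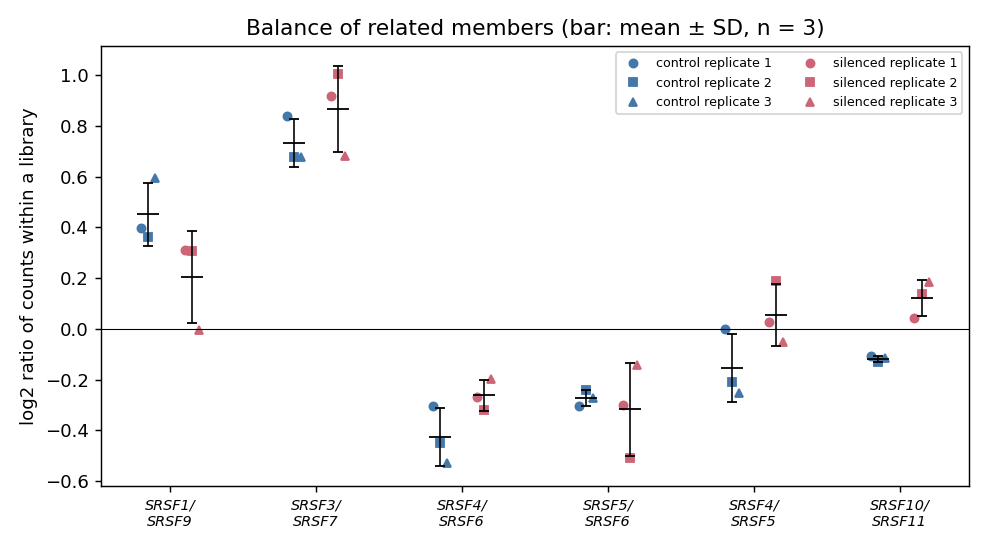
log2 ratio of counts within a library (vertical axis) for 6 pairs of SR splicing factors, in the 3 control libraries (blue) and the 3 silenced libraries (red), with bars for the mean ± SD (n = 3). SRSF1 over SRSF9 and SRSF10 over SRSF11 separate the groups, and only SRSF10 over SRSF11 changes sign between all control and all silenced libraries. Both pairs hold a member that was lower by itself, SRSF1 or SRSF11.

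The promoters of members that fell were read beside that of a member that did not pass the test. The RefSeq promoter table (GRCh38.p14) held 11 promoters for 9 of the members, and SRSF2 had no entry. The 250 bases before each start were searched on both strands for 4 words. TATAAA, the TATA box, occurred in 10.7% of the 35116 promoters in the table and in 5.77% of the 13829 promoters of tested genes. The CCAAT box occurred in 32.0% and 33.0% of them. GGGCGG, the GC box, occurred in 42.6% and 63.8%. TGACGT, the core of the element bound by CREB, occurred in 7.10% and 9.27%. The promoters of SRSF1 and of SRSF11, which fell, and that of SRSF3 are printed up to the start of the gene in GENCODE 29, with matches in capitals. SRSF1 held 1 TGACGT and none of the other words. SRSF3 held 1 TATA box, 2 CCAAT boxes and 1 TGACGT, read in part on the other strand. SRSF11 held none of these words in the promoter nearest the start of its gene. Its other promoter, 15656 bases from its principal start and not printed, held 1 TATA box. SRSF1 and SRSF11 thus shared none of the 4 words in these windows, which says only that these letters do not occur there together. SRSF3 was 1 example among the members that did not pass the test, and others differed from it. SRSF9 and SRSF10 held none of the 4 words, and SRSF5 held 1 TGACGT alone, 40242 bases from its principal start. SRSF4, SRSF6 and SRSF7 held GC boxes, and SRSF7 also a TATA box. The words therefore did not set the members that fell apart from the others.
SRSF1, chr17:58007347-58007496, minus strand: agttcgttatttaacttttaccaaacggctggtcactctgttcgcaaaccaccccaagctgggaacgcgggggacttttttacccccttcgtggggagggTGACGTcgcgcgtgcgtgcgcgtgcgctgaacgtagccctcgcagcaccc
SRSF11, chr1:70205446-70205681, plus strand: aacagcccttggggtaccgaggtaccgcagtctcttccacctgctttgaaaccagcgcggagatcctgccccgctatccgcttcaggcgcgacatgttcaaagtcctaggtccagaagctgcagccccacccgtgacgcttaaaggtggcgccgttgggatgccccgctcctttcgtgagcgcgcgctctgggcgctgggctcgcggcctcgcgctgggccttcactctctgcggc
SRSF3, chr6:36594112-36594352, plus strand: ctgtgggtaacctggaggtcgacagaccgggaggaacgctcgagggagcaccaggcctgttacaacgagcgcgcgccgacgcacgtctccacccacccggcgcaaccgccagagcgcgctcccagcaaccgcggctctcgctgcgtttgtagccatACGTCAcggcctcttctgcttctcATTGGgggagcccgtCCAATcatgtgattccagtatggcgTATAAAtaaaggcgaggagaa

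Several members share their place in the genome with other genes, and the sources used here do not say whether strand was used in counting. SRSF1 lies on the minus strand of chromosome 17 from 58003360 to 58007346, where 56.6% of its exonic bases are shared with the annotated gene AC015813.2 on the same strand, a symbol that has no row in the table. SRSF2 lies on the minus strand of chromosome 17 from 76734115 to 76737374, and 36.7% of its exonic bases overlap MFSD11 on the other strand. MFSD11 had 82 to 153 counts per library, far fewer than the 1746 to 3575 of SRSF2, and did not pass the test (log2 fold change 0.13, adjusted p = 0.657 by edgeR). SRSF9, on the minus strand of chromosome 12 from 120461668 to 120469793, shares 46.2% of its exonic bases with GATC on the other strand. GATC, which encodes a subunit of a mitochondrial amidotransferase, fell by 0.61 on the log2 scale (adjusted p = 0.00635 by edgeR), from 323, 414 and 532 counts in control replicates 1, 2 and 3 to 185, 246 and 331 counts in silenced replicates 1, 2 and 3. Its part in the values of SRSF9 was not tested. SRSF11 spans 70205682 to 70253052 on chromosome 1, on the plus strand, with no gene sharing its exons in the annotation. The 4 pseudogenes named after members never exceeded 33 counts in a library, against at least 786 for a member.

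Other genes of the SR pathway were read from the same fit, as 6 lists with 60 genes, of which 59 passed the filter on low counts. Of these 59, 8 were lower, 0 higher and 51 did not pass the test, a share of 13.6% lower beside 8.27% of all tested genes. None passed a fold change of 2. Their median log2 fold change was -0.03, compared with -0.13 for the 10 members.

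Among the 9 kinases that phosphorylate SR proteins, 1 was lower and 8 did not pass the test, with a median log2 fold change of -0.00. SRPK2, a cytoplasmic SR protein kinase, fell from 52.4, 54.4 and 53.6 CPM to 42.0, 43.2 and 38.9 CPM (log2 fold change -0.37, standard error 0.0769, adjusted p = 0.00906 by edgeR). Its paralog SRPK1 had a log2 fold change of -0.01, and the nuclear kinase CLK1 one of 0.28 (adjusted p = 0.0823 by edgeR). Whether SRPK2 changed more than SRPK1 was not tested. The 3 transport genes TNPO3, NXF1 and NXT1 did not pass the test, with log2 fold changes of 0.01, -0.12 and -0.09.

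The list of SR-like and SR-related proteins had 22 genes, of which SRSF12 was at 0 in all libraries and 21 were tested. LUC7L, a component associated with the U1 snRNP, was the only gene of this list that passed the test. It fell from 50.7, 43.5 and 41.6 CPM to 35.8, 30.9 and 30.8 CPM (log2 fold change -0.47, standard error 0.101, adjusted p = 0.0102 by edgeR). SRSF8, a relative of SRSF2, had a log2 fold change of -0.21 (adjusted p = 0.149 by edgeR). TRA2A and TRA2B, the SR-like proteins that bind GAA-rich exonic enhancers, had log2 fold changes of -0.08 and -0.14. In the other direction, SCAF11 and SRRM1 had log2 fold changes of 0.25 and 0.20 (adjusted p = 0.0682 and 0.0830 by edgeR). The median of the list was -0.00.

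Of the 10 early spliceosome factors that SR proteins contact, 3 were lower and 7 did not pass the test, with a median log2 fold change of -0.14. U2AF2, the large subunit of the factor that binds the polypyrimidine tract, fell from 588, 513 and 500.1 CPM to 405, 349 and 374 CPM. This was the largest difference in the 6 lists (log2 fold change -0.51, standard error 0.0842, adjusted p = 0.00314 by edgeR). SNRNP70, the U1 snRNP protein that the domains of SR proteins bind, fell from 153, 135 and 132 CPM to 106, 106 and 115 CPM (log2 fold change -0.36, adjusted p = 0.0128 by edgeR). SF1, which binds the branch point, fell from 208, 196 and 223 CPM to 178, 172 and 182 CPM (log2 fold change -0.24, adjusted p = 0.0446 by edgeR). The call of SNRNP70 was lost without silenced replicate 1 (adjusted p = 0.0650 by edgeR). That of SF1 was lost without control replicate 1, control replicate 3 or any silenced replicate, with an adjusted p by edgeR between 0.0721 and 0.140.

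The 10 factors of nonsense-mediated decay, the route that removes the decay transcripts of SR genes, had 2 lower genes and 8 that did not pass the test, with a median log2 fold change of -0.16. UPF1, the central helicase of the pathway, fell from 217, 205 and 225 CPM to 177, 173 and 189 CPM (log2 fold change -0.26, standard error 0.0712, adjusted p = 0.0303 by edgeR). SMG6, the endonuclease, fell from 37.3, 41.4 and 42.7 CPM to 31.1, 33.2 and 35.0 CPM (log2 fold change -0.29, standard error 0.0886, adjusted p = 0.0442 by edgeR). Both calls were lost in some settings with a single library left out. UPF1 did not pass without control replicate 1, control replicate 3, silenced replicate 1 or silenced replicate 2 (adjusted p by edgeR 0.0628 to 0.118). Its log2 fold change was -0.26 to -0.23 in these settings. SMG6 passed only without control replicate 1. Without any other library, its adjusted p by edgeR was 0.0549 to 0.161, at log2 fold changes of -0.34 to -0.25. The level of a decay factor's mRNA does not measure decay, and the decay transcripts of the members could not be told apart in counts per gene.

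Of the 6 hnRNP genes listed, PTBP1 was lower and 5 did not pass the test. PTBP1, a repressor that binds pyrimidine-rich sequences, fell from 574, 502 and 532 CPM to 414, 437 and 447 CPM (log2 fold change -0.31, standard error 0.0726, adjusted p = 0.0158 by edgeR). Without silenced replicate 1, the call was lost (adjusted p = 0.0827 by edgeR). HNRNPA1, the classical antagonist of SRSF1, had a log2 fold change of 0.03. Over all 6 lists, 3 genes were lower without silenced replicate 1 and 5 without silenced replicate 2.

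**Figure D4:**
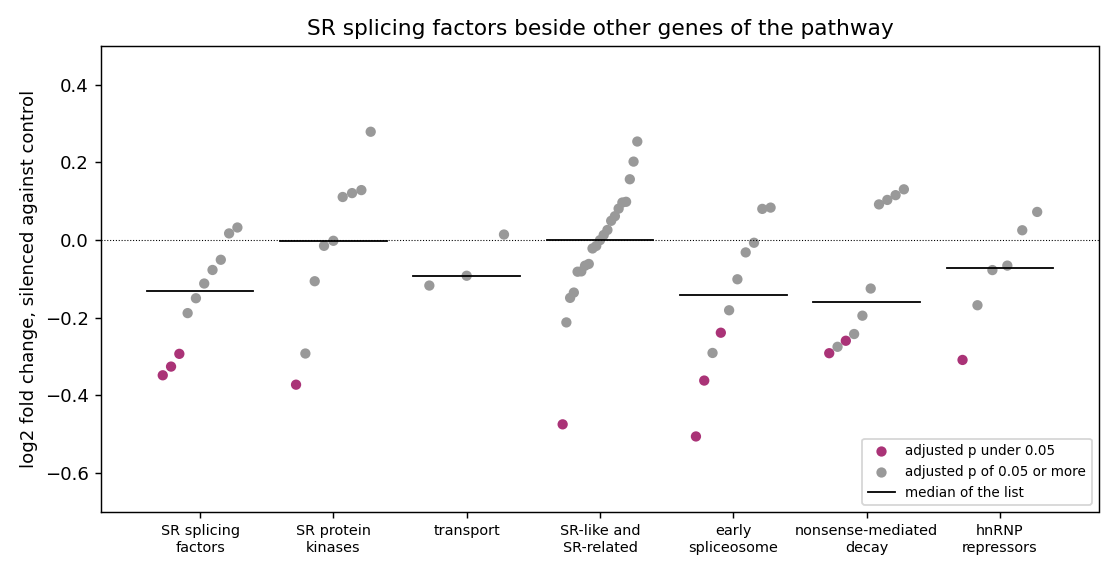
log2 fold change, silenced against control (vertical axis), of the 10 SR splicing factors and of the tested genes of 6 other lists, ordered by value within a list, in purple where the adjusted p of edgeR was under 0.05, with a horizontal line at each median. All purple points lie below 0, with U2AF2 the lowest at -0.51.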

How the data were processed

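Total RNA from A549 cells was made into Ion Proton libraries, and MapSplice served the authors for mapping and for counting reads per gene. The table holds their raw counts as deposited, by gene symbol. The submitters' processing notes name GRCh37, and strand, treatment of reads with several matches and annotation are not given in the sources used here. The genome of that build was not used here, so that locations came from GENCODE 29 and promoters from RefSeq, both on GRCh38.

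Counts were tested with edgeR 4.0.16 in R 4.3.3 (filterByExpr, TMM, quasi-likelihood F test, no covariate), with Benjamini-Hochberg adjustment over 15250 genes, after the code had been tested on simulated data. In the simulated data, edgeR found 9 of 50 genes changed by a factor of 1.3, 34 of 50 by 1.5 and 48 of 50 by 2. It also called 18 genes that had not been changed. Of the 40173 genes, 14309 were at 0 in all libraries. TMM factors were 0.955 to 1.02. CPM used the TMM-scaled library size of the tested genes, and the standard error was the absolute log2 fold change over the square root of F. Pairs of members were compared by two-sided exact permutation tests (scipy 1.17.1). Each pair of replicates within a group was further apart than counting noise allows (chi-square per degree of freedom 4.20 to 29.7).

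All members and, of each list, up to 5 genes with an adjusted p under 0.05 and the largest change were named. Genes beside these were named as examples after their values were seen. The members and lists were chosen with earlier results of these data known. Alternatives tried were DESeq2 1.42.0, an adjusted p under 0.01, RLE size factors, library size only, other filters on low counts, rows typed mRNA only, counts thinned to the smallest library, a replicate block and each library left out in turn.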

Additional observations from a re-analysis of the deposited data

How the results depend on the processing

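SRSF1 and SRSF2 were lower with an adjusted p under 0.05 in every setting tried, and no setting made a member higher. At an adjusted p under 0.01, 1 member, 2 genes of the other lists and 903 of all genes passed, compared with 3, 8 and 2595 at 0.05. Without any single library, 2 to 3 members, 3 to 7 genes of the other lists and 1225 to 1962 of all genes passed. With library size only, the log2 change of the members' sum was -0.12 in place of -0.15, and all genes split into 1555 higher and 991 lower in place of 1334 and 1261, with a median log2 fold change of 0.035. Filtering only genes without any count gave 3449 genes, 1554 higher and 1895 lower.

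Same-numbered libraries deviated together weakly (r = 0.162, 0.190 and 0.0556), and each control library matched best with the silenced library of its own number. The sources used here do not say that a number marks a shared culture, so the main fit had no block. Whether same-numbered libraries shared more than the number was not tested. With a replicate block, 3449 of all genes, 13 genes of the other lists and still 3 members passed.

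Values that changed sign were those near 0: SRSF3 (-0.041 without silenced replicate 2, with a range of -0.041 to 0.11 over single libraries left out), SRSF4 (-0.030 without control replicate 3 and -0.0078 without silenced replicate 1, range -0.030 to 0.047) and SRSF5 over SRSF6 (0.052 without silenced replicate 2, range -0.13 to 0.052). The causes were not tested. For FAM83H-AS1, rows typed mRNA only gave no value. SMG6 did not pass with DESeq2 (adjusted p = 0.0779) or with library size only (adjusted p = 0.0712 by edgeR), nor did SF1 with library size only (adjusted p = 0.0648 by edgeR). With 3 libraries per group, standard errors of 0.0706 to 0.0957 on the log2 scale limited which changes of a member could be seen.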
